A study of Mus musculus with 4 samples.

Results

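The genes of the R2TP and TTT cochaperones and of the kinases that mature on them were examined for RUVBL2 binding in the mouse hypothalamus. The set was given by name and holds 10 genes: Rpap3 and Pih1d1 of R2TP, Tti1, Tti2 and Telo2 of TTT, and the client kinase genes Mtor, Atm, Atr, Smg1 and Prkdc. All 10 symbols were found among the 21779 protein-coding genes of the RefSeq table of GRCm38.p6. A gene was counted when a peak touched its body or lay within 3 kb of either of its ends. Chromatin came from the hypothalamus of wild-type (WT) male C57BL/J mice aged 8 weeks and was enriched with an anti-RUVBL2 antibody on magnetic beads. The series holds 2 RUVBL2 ChIP libraries and 2 input libraries, and the lists used here are the peak lists of the 2 ChIP libraries, with 3943 peaks in replicate 1 and 6403 in replicate 2. The peak names inside the list of replicate 2 begin with Hyp3 while the title of its sample begins with Hyp2; the list was taken by the sample it is recorded under, and every value of replicate 2 rests on that. The labels do not say whether the replicates came from separate animals or pools, so their spread may be technical in part. The tissue was taken whole, without sorting of neurons.

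RUVBL1 and RUVBL2 are AAA+ ATPases that form a ring, and in R2TP this ring carries the HSP90-binding scaffold RPAP3 and the adaptor PIH1D1. PIH1D1 binds phosphorylated TELO2, which with TTI1 and TTI2 makes up the TTT complex. Together they bring newly made kinases of the phosphatidylinositol 3-kinase-related family (PIKK) to HSP90 for folding and assembly. Of these kinases, mTOR controls growth in response to nutrients and takes part in hypothalamic control of feeding, ATM and ATR signal DNA breaks and stalled replication, DNA-PKcs (the product of Prkdc) acts in end joining of DNA breaks, and SMG1 starts nonsense-mediated mRNA decay. RUVBL2 also sits in chromatin complexes, and a ChIP peak at one of these genes says nothing on whether the encoded protein is made or bound by R2TP.

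Tti1, Atr and Smg1 held peaks of both libraries that overlapped each other, Mtor and Prkdc held a peak of replicate 2 with none in replicate 1, and Rpap3, Pih1d1, Tti2, Telo2 and Atm held none in either list. Overlapping peaks of both libraries thus lay at 3 of the 10 genes, where 17.3% of all protein-coding genes held them. A peak of replicate 1 lay at the same 3 genes, against 21.0% of all protein-coding genes, and a peak of replicate 2 at 5, against 32.8%. Of the members, 2 held a peak of replicate 2 alone, against 14.9% of all protein-coding genes, and 5 held none, against 64.1%. With 10 genes, a single gene moves the share by 10 percentage points, and no test across samples was possible with 1 group of libraries. The members are also long, with a median body of 71147 bp against 17217 bp over all protein-coding genes. Within 3 kb of a gene end alone, overlapping peaks lay again at 3 members, against 16.1% of all protein-coding genes. There, 3 members held a peak of replicate 1, against 19.6%, and 5 a peak of replicate 2, against 30.7%.

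**Figure D1:**
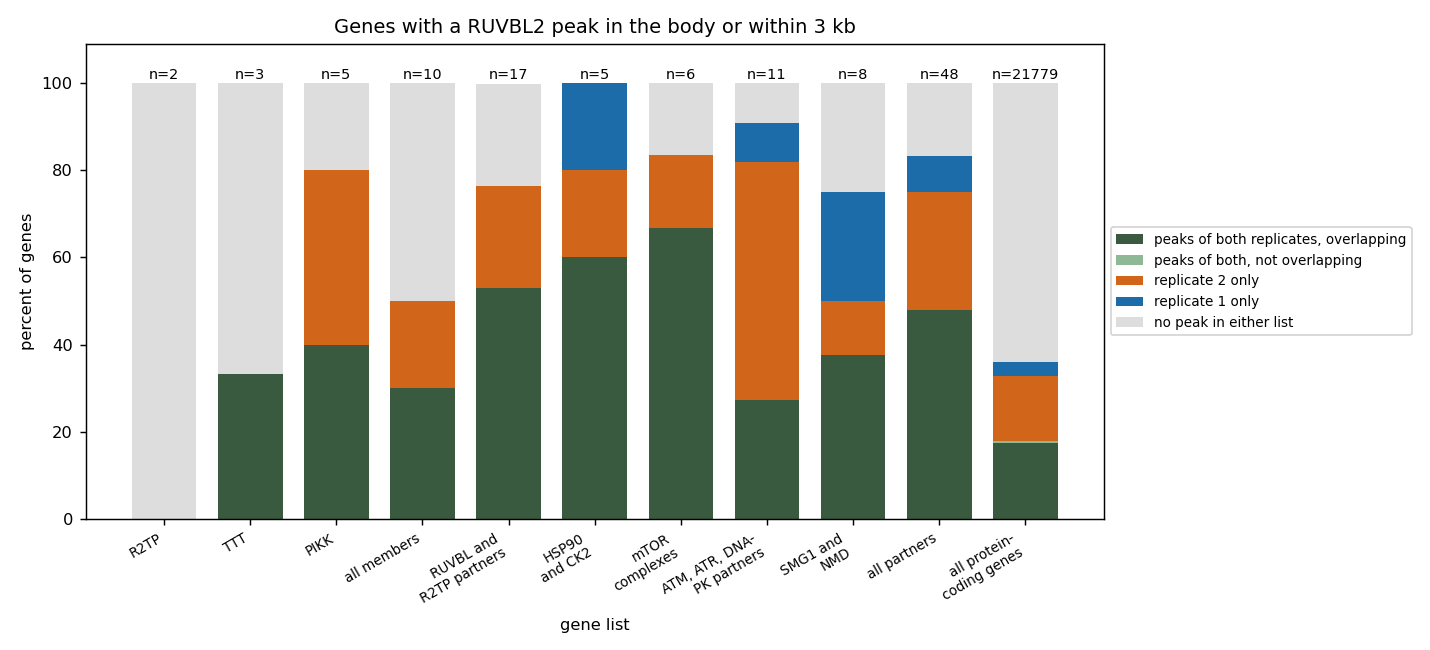
Share of genes (percent, vertical axis) in each list (horizontal axis) with overlapping peaks of both replicates, peaks of 1 replicate, or no peak, in the body widened by 3 kb; the number of genes stands above each bar, and Trrap is drawn within all partners only. The 2 R2TP genes of the set, Rpap3 and Pih1d1, held no peak, and Ruvbl1 and Ruvbl2 are counted among the partners. TTT held overlapping peaks at 1 of 3 and the PIKK genes at 2 of 5, against 17.3% of all protein-coding genes.

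Neither R2TP gene of the set, Rpap3 or Pih1d1, held a peak. At Rpap3 on chromosome 15 (97675097 to 97705822), the nearest peak lay 78528 bp away in replicate 1 and 78391 bp away in replicate 2, by the end of Slc48a1. At Pih1d1 on chromosome 7 (45150613 to 45160065), the nearest peaks lay 21210 and 21271 bp away, by the end of Rpl13a, a ribosomal protein gene. A missing peak is bounded by what the peak caller listed: its weakest peaks on the lowest background rested on a summit pileup of 10 reads in replicate 1 (fold 3.38 over a background of 2.24 reads) and of 11 reads in replicate 2 (fold 3.29 over 2.65 reads). On higher backgrounds the lists hold lower folds, down to 1.80 in replicate 1 and 1.84 in replicate 2, so no single fold marks the limit, and weak binding may have gone unlisted.

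Of the TTT genes, Tti1, the scaffold subunit, was the member with overlapping peaks. Its gene lies on chromosome 2 (157981803 to 158028475) and is read from the high-coordinate end. The peak of replicate 1 (158028353 to 158028756, 404 bp wide) had a fold enrichment over the caller's background of 3.85 (95% counting interval 2.22 to 6.29) from 14 reads at the summit. The peak of replicate 2 (158028300 to 158028854, 555 bp) had a fold of 4.35 (2.67 to 6.74) from 18 reads. By −log10 p, these peaks ranked 3223 of 3943 and 4378 of 6403, in the lower part of both lists. The summits lay 102 bp and 276 bp upstream of the RefSeq start of Tti1. Rprd1b, which encodes a regulator of the RNA polymerase II tail, starts on the opposite strand, and the same summits lay 39 bp and 213 bp inside that gene's start. The peaks were therefore at a start region that both genes share and cannot be given to either.

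Tti2 and Telo2, the other subunits of TTT, held no peak. Tti2 on chromosome 8 (31150316 to 31164703) came closest to the limit of 3 kb from outside: a peak of replicate 2 lay 3809 bp from its body, with a fold of 4.07 and rank 4130, by the end of Mak16, and the nearest peak of replicate 1 lay 60317 bp away. The members' peaks farthest out but inside the limit were those beyond the far end of Atr, 1595 bp from the gene in replicate 1 and 1215 bp in replicate 2. At Telo2 on chromosome 17 (25099569 to 25115974), the nearest peaks lay 82976 bp away in replicate 1 and 68258 bp away in replicate 2.

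Among the kinase genes, Atr on chromosome 9 (95857597 to 95953217) held peaks at both ends in both libraries. At its start, the peak of replicate 1 (95857306 to 95857903, 598 bp) had a fold of 4.32 (95% counting interval 2.44 to 7.16) from 13 reads, and that of replicate 2 (95857514 to 95857883, 370 bp) a fold of 3.89 (2.45 to 5.91) from 20 reads. The ranks were 2872 and 4608. The summit of replicate 1 lay 79 bp downstream of the Atr start and that of replicate 2 lay 46 bp upstream, 125 bp apart. The gene 1700065D16Rik, read the other way, overlaps this end of Atr by 286 bp, and the nearer of its RefSeq starts lay 159 bp from the summit of replicate 1 and 34 bp from that of replicate 2. The peaks at this end therefore cannot be given to either gene. Beyond the far end of Atr, a further pair of peaks had folds of 4.31 (2.44 to 7.145) and 3.49 (2.29 to 5.13), ranks 3093 and 4626, and widths of 264 and 736 bp. Their summits lay 234 bp and 8 bp inside the start of Xrn1, a gene for a cytoplasmic exoribonuclease, and 1777 bp and 1551 bp from the end of Atr. A start of the lncRNA gene Gm16794, read the other way, lay 304 bp and 78 bp from the same summits. This second pair is counted for Atr by distance alone.

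Smg1 on chromosome 7 (118131308 to 118244437) held peaks whose summits lay on opposite sides of its start. The peak of replicate 1 (118243399 to 118244124, 726 bp) had a fold of 4.32 (95% counting interval 2.44 to 7.16) from 13 reads, and its summit lay 281 bp upstream of the RefSeq start. The peak of replicate 2 (118243077 to 118243540, 464 bp) had a fold of 3.75 (2.302 to 5.81) from 18 reads, with its summit 215 bp downstream. They shared 142 bp, which is 30.6% of the shorter peak, and their summits lay 496 bp apart, where the median over all 3175 overlapping pairs of the lists was 94 bp. When summits within 250 bp of each other or an overlap of 50% of the shorter peak was required, Smg1 no longer counted. Under either rule 2 of 10 members were left, Tti1 and Atr. The shares of all protein-coding genes were then 14.4% by the summit rule and 16.6% by the overlap rule. The summit of replicate 1 lay 11 bp from the start of the lncRNA gene 4930583K01Rik, which is read the other way. That peak covers the starts of both genes and cannot be given to either. In replicate 1, Smg1 and the start of Atr had the same fold and −log10 p, since both rested on 13 reads over a background of 2.24.

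**Figure D2:**
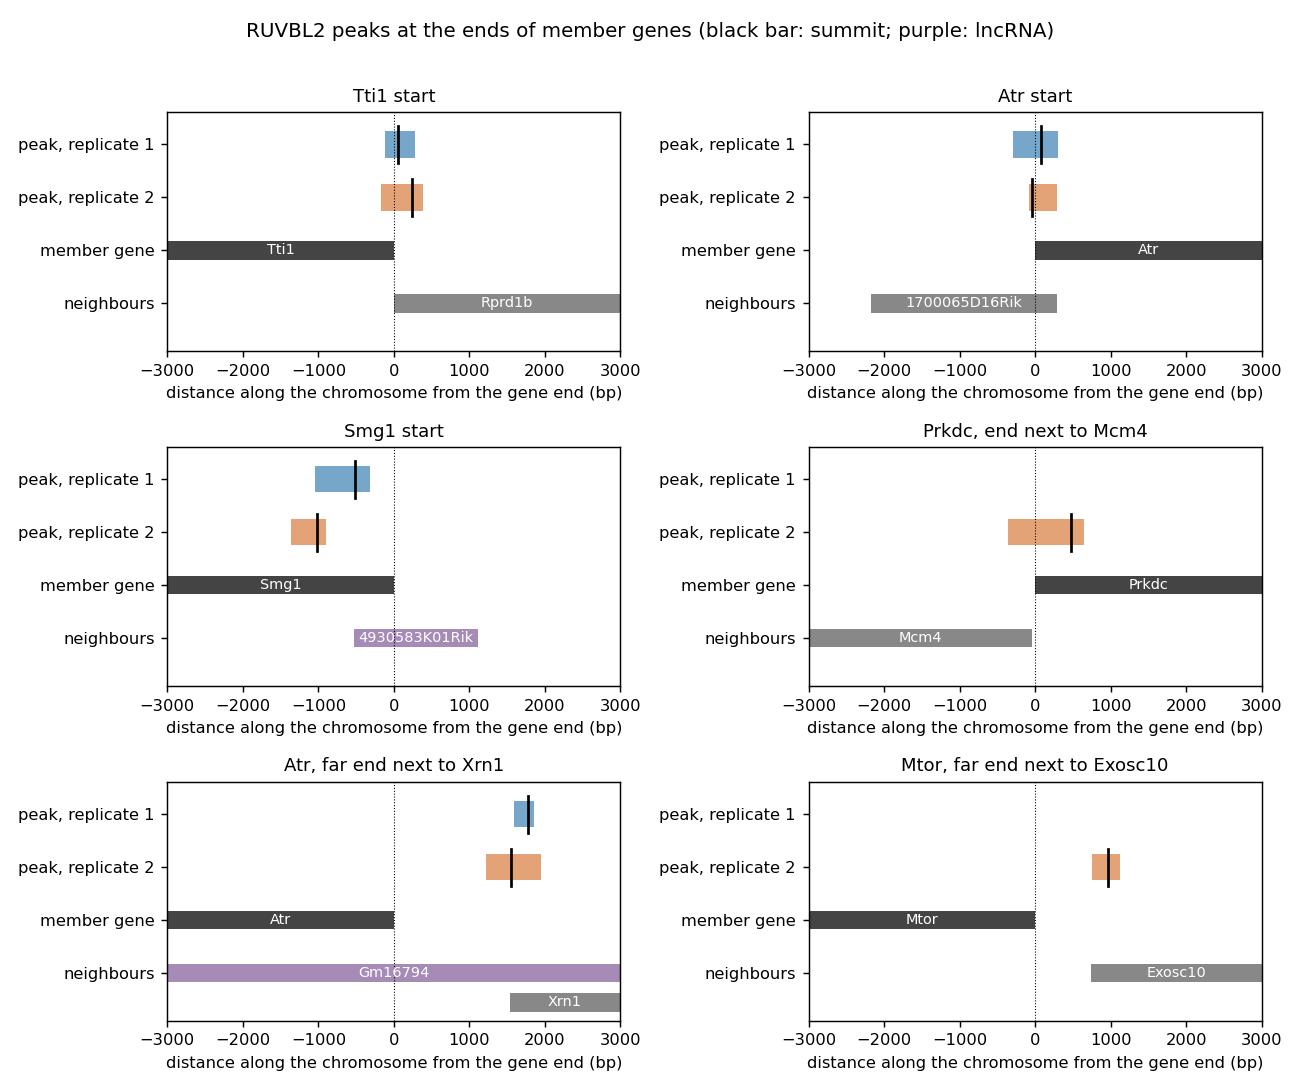
Peaks of replicate 1 (blue) and replicate 2 (orange) around the 6 member gene ends that held one, by distance along the chromosome from the annotated end of the member gene (bp); black bars mark summits, dark bars the member gene and lighter bars its neighbours. The Smg1 summits lie 496 bp apart, while those at the starts of Tti1 and Atr lie 174 and 125 bp apart.

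Prkdc on chromosome 16 (15637444 to 15842239) held the best-ranked peak of any member, in replicate 2. This peak (15637083 to 15638098, 1016 bp) had a fold of 6.24 (95% counting interval 4.19 to 8.98) from 27 reads and rank 1306 of 6403. It was wider than 91.3% of the peaks in its list. It spans the gap to Mcm4, a gene for a subunit of the replicative helicase whose end lies 44 bp away, and has its summit 477 bp inside Prkdc. The peak covers the facing ends of both genes, whose strands were not given, and cannot be given to either. In replicate 1, the nearest peak lay 20460 bp from Prkdc, by the end of Mzt2.

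Mtor on chromosome 4 (148448582 to 148557685) also held a peak in replicate 2 and none in replicate 1. The peak (148558443 to 148558813, 371 bp) had a fold of 5.47 (3.70 to 7.82) from 28 reads and rank 1616. It lay 758 bp beyond the far end of Mtor, and its summit was 57 bp from a start of Exosc10, which encodes a nuclease of the nuclear exosome. This peak is counted for Mtor by distance alone. The start of Mtor itself held no peak in either list, and the nearest peak of replicate 1 lay 68752 bp from the gene.

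Atm on chromosome 9 (53437122 to 53536828) was the kinase gene without a peak. The nearest peaks lay 52600 bp away in replicate 1 and 52525 bp away in replicate 2, by the end of Poglut3. Like Prkdc, Atm has a close neighbour, Npat, which encodes a regulator of histone gene transcription and lies 61 bp away, and the gap between them held no peak.

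The member peaks were then placed within their lists. In replicate 1, all 4 member peaks had folds below the list's median of 4.93 (3.85 to 4.32), on summit pileups of 13 to 14 reads where the list's median was 16. In replicate 2, the 4 member peaks that overlapped replicate 1 had a median fold of 3.82, against 5.35 for all peaks that overlapped replicate 1. The other 2, at Prkdc and beyond Mtor, had a median fold of 5.86, against 4.39 for all peaks of replicate 2 without an overlap. These 4 shared member peaks were outranked by a median of 72.1% of the list of replicate 2, and the 2 unshared ones by 22.8%. Over that whole list, when divided into 4 parts by rank, 79.8% of the peaks in the best part overlapped a peak of replicate 1. The shares in the following parts were 54.2%, 34.6% and 26.2%. By rank, the Prkdc peak fell in the best part and the peak beyond Mtor in the part after it. The counting intervals of all 6 member peaks in replicate 2 overlapped one another. Overlap of separate intervals does not decide whether 2 folds differ, and differences between these folds were not tested.

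**Figure D3:**
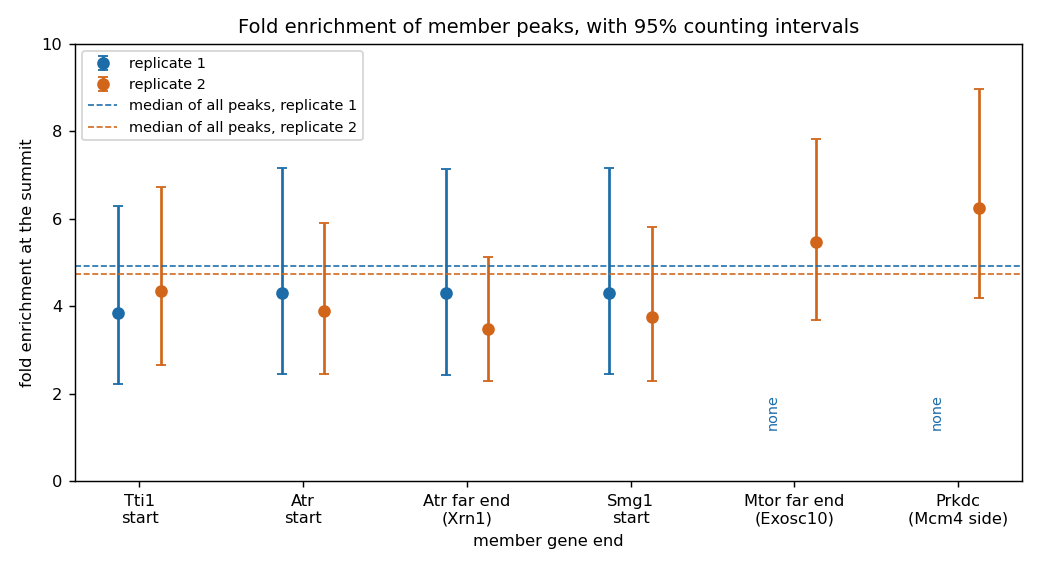
Fold enrichment at the summit (vertical axis) of each member peak in replicate 1 (blue) and replicate 2 (orange), with exact Poisson 95% intervals of the summit pileup; dashed lines mark the median fold of each list. Prkdc and Mtor, with folds of 6.24 and 5.47, lie above the median of replicate 2 and have no peak in replicate 1.

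**Figure D4:**
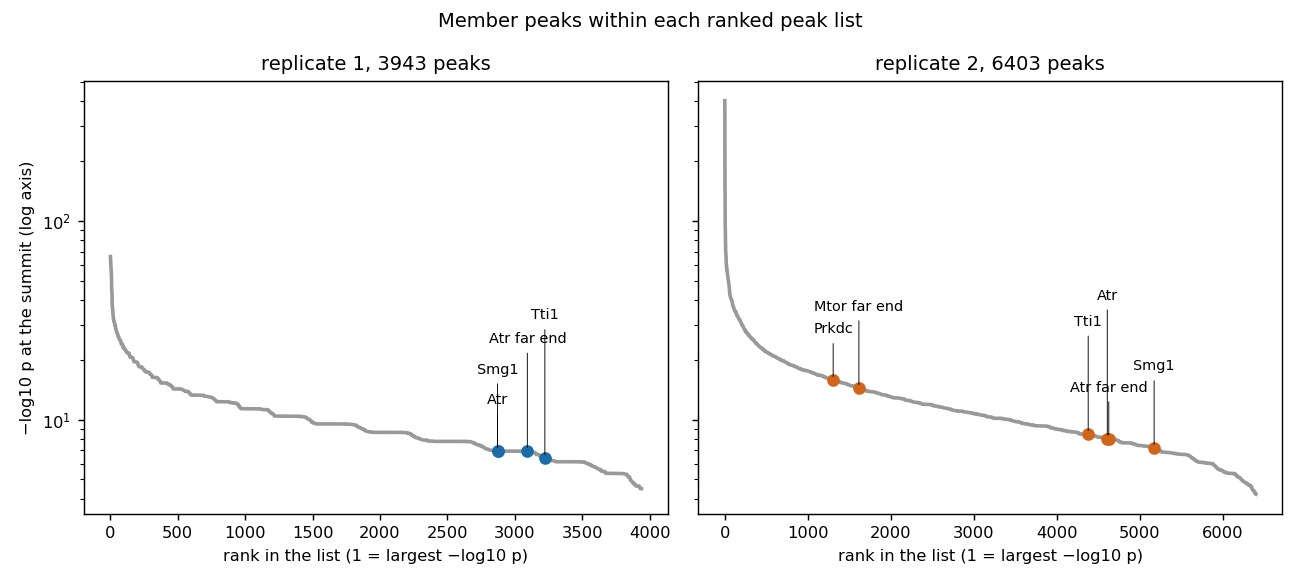
The −log10 p at the summit (log axis) against rank for all peaks of each list (grey), with member peaks marked. In replicate 1 the members rank from 2872 to 3223 of 3943, and in replicate 2 from 1306 to 5172 of 6403.

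The promoter sequences of the members with overlapping peaks are shown, with how much of each lay under a peak. Promoters are RefSeq windows of GRCm38.p6, from 250 bases before to 50 after the start, 5′ to 3′ on the gene's strand. Capitals mark matches, on either strand, to any of 8 short motifs: CCAAT (the NF-Y core), CCGGAA (ETS factors), TGACGT (CREB and ATF), CATGCGC (NRF1), ATGGCGG (YY1), GGGCGG (SP and KLF factors), TCGCGA (BANP) and CACGTG (the E-box); no motif contains another, though GGGCGG and ATGGCGG end alike. Tti1 (chr2:158028385-158028684, minus strand) lay wholly under the peaks of both libraries. Atr (chr9:95857347-95857646, plus strand) lay wholly under that of replicate 1 and by 133 bases under that of replicate 2. Smg1 (chr7:118243588-118243887, minus strand) lay wholly under that of replicate 1 and under none of replicate 2, so it lies outside the bases that the Smg1 peaks shared.
Tti1: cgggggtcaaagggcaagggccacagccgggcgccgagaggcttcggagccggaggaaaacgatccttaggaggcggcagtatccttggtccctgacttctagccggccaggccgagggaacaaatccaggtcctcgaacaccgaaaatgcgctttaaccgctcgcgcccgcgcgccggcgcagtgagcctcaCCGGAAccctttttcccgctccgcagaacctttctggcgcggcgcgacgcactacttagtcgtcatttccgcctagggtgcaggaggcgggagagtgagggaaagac
Atr: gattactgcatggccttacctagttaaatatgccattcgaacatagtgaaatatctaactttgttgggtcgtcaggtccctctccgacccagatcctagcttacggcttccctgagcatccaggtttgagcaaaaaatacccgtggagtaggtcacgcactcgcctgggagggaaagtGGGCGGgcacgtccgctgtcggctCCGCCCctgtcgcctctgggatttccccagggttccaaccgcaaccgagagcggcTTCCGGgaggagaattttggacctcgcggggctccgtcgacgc
Smg1: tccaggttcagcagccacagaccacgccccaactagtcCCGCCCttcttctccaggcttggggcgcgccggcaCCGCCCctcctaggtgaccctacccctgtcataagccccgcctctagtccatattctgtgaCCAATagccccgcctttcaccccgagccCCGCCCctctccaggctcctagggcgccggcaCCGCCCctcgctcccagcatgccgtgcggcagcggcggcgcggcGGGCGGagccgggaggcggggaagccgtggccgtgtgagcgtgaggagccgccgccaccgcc

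The Tti1 promoter holds 1 CCGGAA match and no other motif of the 8. Atr holds 1 match to CCGGAA just after the start and 2 to GGGCGG. Smg1 holds 5 matches to GGGCGG and 1 to CCAAT, and its 72.0% G and C is the highest among the member promoters. CCGGAA occurred in 18.7% of 21263 promoters of protein-coding genes and in 38.6% of the 2365 that peaks of both libraries touched. GGGCGG occurred in 46.2% and 73.5% of the same sets. These shares say how common such short words are, and a match is not a binding site.

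For contrast, 3 promoters with no peak are shown: Rpap3 (chr15:97705773-97706072, minus strand), Atm (chr9:53536622-53536921, minus strand) and Mtor (chr4:148448332-148448631, plus strand). The start of Exosc10 that lay wholly under the peak beyond Mtor (chr4:148558463-148558762, plus strand) stands beside them.
Rpap3: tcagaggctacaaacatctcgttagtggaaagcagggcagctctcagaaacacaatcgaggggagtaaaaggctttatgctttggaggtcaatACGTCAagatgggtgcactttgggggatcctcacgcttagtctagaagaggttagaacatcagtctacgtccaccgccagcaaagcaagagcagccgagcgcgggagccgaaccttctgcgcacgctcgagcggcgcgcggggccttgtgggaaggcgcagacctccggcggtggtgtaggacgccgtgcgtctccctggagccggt
Atm: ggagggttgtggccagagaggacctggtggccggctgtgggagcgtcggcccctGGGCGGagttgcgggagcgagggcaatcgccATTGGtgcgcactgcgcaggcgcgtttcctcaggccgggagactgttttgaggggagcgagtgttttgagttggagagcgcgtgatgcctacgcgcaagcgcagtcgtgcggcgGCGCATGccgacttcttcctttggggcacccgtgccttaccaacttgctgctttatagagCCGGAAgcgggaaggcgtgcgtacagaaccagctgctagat
Mtor: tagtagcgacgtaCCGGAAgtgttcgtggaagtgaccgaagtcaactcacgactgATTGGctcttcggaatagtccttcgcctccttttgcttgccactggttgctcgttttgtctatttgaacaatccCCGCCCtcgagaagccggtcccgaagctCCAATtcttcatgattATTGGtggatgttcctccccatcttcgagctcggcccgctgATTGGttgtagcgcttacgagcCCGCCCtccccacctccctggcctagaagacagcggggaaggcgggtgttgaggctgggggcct
Exosc10: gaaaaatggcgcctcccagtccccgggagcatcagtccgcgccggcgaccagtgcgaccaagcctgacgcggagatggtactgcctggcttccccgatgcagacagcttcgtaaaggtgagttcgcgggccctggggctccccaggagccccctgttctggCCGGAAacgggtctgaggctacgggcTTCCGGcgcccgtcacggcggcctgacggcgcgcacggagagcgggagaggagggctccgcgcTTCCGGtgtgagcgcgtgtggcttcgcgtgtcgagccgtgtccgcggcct

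The Mtor promoter, with no peak, holds 4 matches to CCAAT, 1 to the ETS motif and 2 to the SP and KLF motif. That of Atm, also with none, holds 1 match each to the NF-Y, ETS, NRF1 and SP and KLF motifs. Rpap3 holds 1 match, to TGACGT, and the Exosc10 window holds 3 to CCGGAA. The CCAAT motif occurred in 38.2% of all promoters of protein-coding genes and in 30.1% of those touched by both libraries. No member promoter holds ATGGCGG or TCGCGA, which occurred in 5.25% and 3.32% of promoters of protein-coding genes and in 18.6% and 8.12% of those touched by both libraries.

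The table holds 10 promoter sequences for 8 members, with 2 each for Pih1d1 and Telo2; Tti2 and Prkdc have no entry. A peak of replicate 1 touched 3 of the 10, against 13.8% of promoters of protein-coding genes, and a peak of replicate 2 touched 2, against 24.0%; both touched Tti1 and Atr, 2 of 10 against 11.1%. Promoters touched by both libraries were rich in CpG: their median ratio of observed to expected CpG was 0.896, against 0.567 over all promoters of protein-coding genes. Among member promoters with a peak, the ratio was 1.04 at Tti1, 0.893 at Atr and 0.799 at Smg1. Among those without, it was 0.957 at Atm, 0.945 at Rpap3, 0.873 at Mtor, 0.96 and 0.237 at the starts of Pih1d1, and 0.804 and 0.635 at those of Telo2. The ranges of member promoters with and without a peak overlap, although the highest ratio is that of Tti1. With so few promoters, whether CpG content differs between them was not tested.

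**Figure D5:**
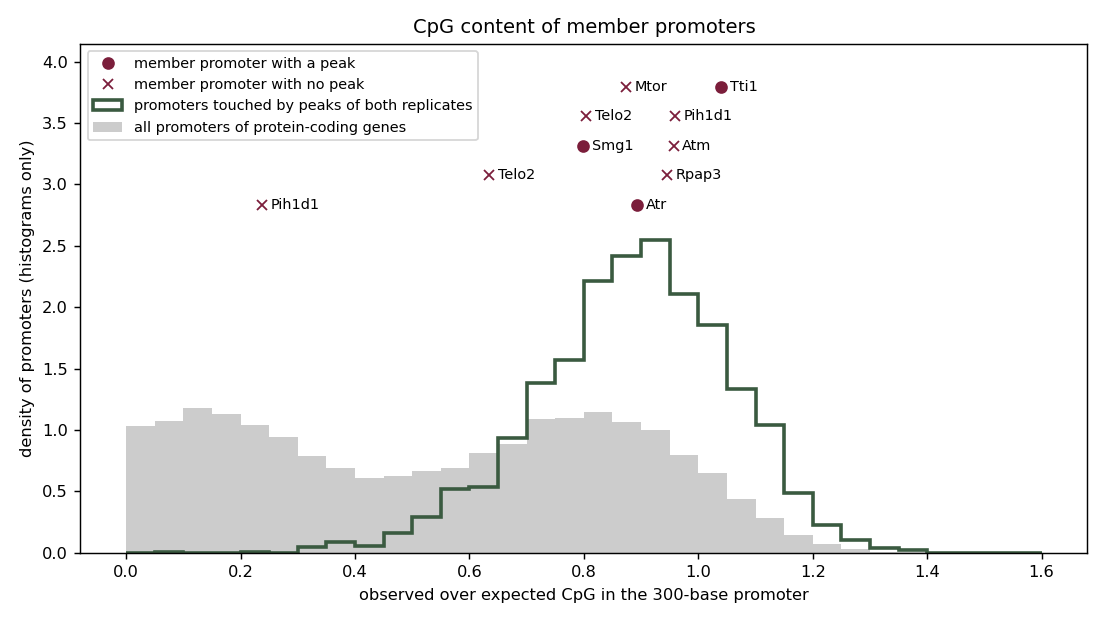
Ratio of observed to expected CpG (horizontal axis) for the 10 member promoters, as dots where a peak of either library touched them and crosses where none did, above the distributions for promoters touched by both libraries (line) and for all promoters of protein-coding genes (grey). The heights of the dots and crosses carry no value. The members with a peak lie at 0.799, 0.893 and 1.04, and the promoters with none from 0.237 to 0.96.

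The genes that work with the members were counted in the same way. Of 48 partner genes, 23 (47.9%, against 17.3% of all protein-coding genes) held overlapping peaks of both libraries, 13 (27.1%, against 14.9%) a peak of replicate 2 with none in replicate 1, 4 (8.33%, against 3.13%) the reverse and 8 (16.7%, against 64.1%) none. The partner list was drawn up with earlier results of these data known, and its difference from the members was not tested. Trrap, a pseudokinase of the PIKK family that serves as a scaffold of histone acetyltransferase complexes, had a fold of 4.20 in the list of replicate 1 (95% counting interval 2.42 to 6.85) and of 6.45 in that of replicate 2 (4.45 to 9.07). When summits within 250 bp of each other were required, Trrap no longer counted. That rule left 20 of 48 partner genes, against 14.4% of all protein-coding genes. Ruvbl2 held no peak, the nearest lying 26180 bp and 26061 bp from its body. Ruvbl1 held a peak of replicate 2 2471 bp beyond its far end, with a fold of 3.08 and rank 6008.

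Of 17 RUVBL and R2TP partner genes, Ruvbl1 and Ruvbl2 included, 9 (52.9%, against 17.3% of all protein-coding genes) held overlapping peaks. Pih1d2, a relative of Pih1d1, had a fold of 5.48 in replicate 1 and of 4.47 in replicate 2, and Wac, which links TTT and R2TP to mTOR in human cells, of 6.16 and 5.73. Znhit2 had folds of 6.31 and 4.62, and Pdrg1, a subunit of the prefoldin-like part of the complex, of 4.37 and 5.37. Of 5 genes of HSP90 and of casein kinase 2, which phosphorylates TELO2, 3 (60.0%, against the same 17.3%) held overlapping peaks. Csnk2a1, which encodes a catalytic subunit of that kinase, came first among the partners by the worse of its ranks, with folds of 7.56 and 9.88 and ranks 241 and 124. Hsp90aa1 and Hsp90ab1, the cytosolic HSP90 genes, had folds of 4.54 and 8.29, and of 4.70 and 8.60. Hsp90ab1 held a further peak of replicate 1 inside its body, with a fold of 3.70 and rank 3674. The partners named here are those of the best ranks: over all partner peaks, 20 of 29 in replicate 1 and 18 of 38 in replicate 2 had folds below the median of their list.

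The partners of each kinase were also counted. Of 6 genes of the mTOR complexes, 4 (66.7%, against 17.3% of all protein-coding genes) held overlapping peaks although Mtor did not. Among them were Akt1s1, an inhibitory subunit (folds 5.88 and 9.31), and the scaffolds Rptor (4.62 and 7.41) and Rictor (5.24 and 6.03). The other was Mlst8, whose region lay by the end of Pgp. Akt1s1 no longer counted when summits within 250 bp of each other were required. Of 11 partners of ATM, ATR and DNA-PK, 3 (27.3%, against 17.3% of all protein-coding genes) held overlapping peaks. A further 6 (54.5%, against 14.9% of all protein-coding genes) held a peak of replicate 2 with none in replicate 1, as Prkdc did. Rad17, a loader of the checkpoint clamp, had folds of 6.16 and 4.75, and Nbn, which recruits ATM to breaks, of 4.93 and 6.05. The Rad9a region, with folds of 4.62 and 5.85, lay by the end of Ppp1ca. Of 8 genes of nonsense-mediated decay around SMG1, 3 (37.5%, against 17.3% of all protein-coding genes) held overlapping peaks. None of these shares was tested.

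In the whole lists, the median peak was 415 bp wide in replicate 1 and 521 bp in replicate 2. Of the neuronal markers 1 of 5 (Rbfox3) and of the hypothalamic markers 1 of 6 (Pomc) held overlapping peaks. Among all protein-coding genes the share was 17.3%. No gene of the astrocyte, oligodendrocyte, microglia, endothelial or liver lists, of 2 or 3 genes each, held them. The lists are short, and whether they differ from each other or from all protein-coding genes was not tested. At Rbfox3 the overlap lay in the gene body, with none within 3 kb of a gene end. Peaks at marker genes describe binding and not expression, so they do not check the tissue by its defining transcripts. Folds are the authors' values for each peak and were read within a list only. The intervals cover counting error alone, since they rest on the pileup of 1 library with the background held fixed. They take each read as a separate fragment, and PCR copies cannot be told with certainty from separate fragments without molecular identifiers.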

How the data were processed

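RUVBL2 ChIP-seq peak lists were analysed for 2 ChIP libraries. Fixation was in 1% formaldehyde (10 min), and paired 150 bp reads came from libraries of 15 PCR cycles, per the labels. The build GRCm38 and the tools MACS2 2.1.0, Bowtie2 2.3.4.1, Trimmomatic 0.33, bcl2fastq 2.17 and ChIPseeker stand in the submitters' processing notes; tool settings and the caller's control library were not given in the sources used here. Peaks were called per library. The deposited lists give for each peak a fold enrichment ratio, a −log10 p, a −log10 q and a score that is 10 times the −log10 q without its decimals. Peaks reached down to a −log10 q of 1.32 (replicate 1) and 1.34 (replicate 2). Values of the inputs alone were not used here, and library totals were not given in the sources used.

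Ranks follow the −log10 p, with ties given the best rank. The summit pileup and background were solved from the fold, (pileup + 1) over (background + 1), and the −log10 of the Poisson tail; a whole-number pileup matched 100% of peaks in replicate 1 and 99.98% in replicate 2 within a relative tolerance of 0.0001, and the step was tested on simulated data. Intervals are exact Poisson 95% intervals with the background held fixed. Genes came from a RefSeq table of GRCm38.p6; 340 rows within the first 3 Mb of a chromosome were left out. Peaks of the lists counted as overlapping from 1 bp. Of 49 partner symbols, 48 were matched. Strand is known only where a RefSeq promoter sequence was given; peaks were not assigned to exons, introns or UTRs. The 10 members and the lists were chosen with earlier results of these data known. By rule, all members were named, with up to 15 partners that came first by the worse of their ranks, Ruvbl1, Ruvbl2, Trrap and neighbours at the same peak; Mlst8, Rbfox3 and Pomc were chosen after their values were seen. A partner gene that the rule names is not reported here. Python 3.11.15, numpy 2.4.6, pandas 2.3.3 and scipy 1.17.1 were used.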

Additional observations from a re-analysis of the deposited data

How the results depend on the processing

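Of 34 alternative counts, 24 stayed within 1.5 times the reported one. A −log10 q of at least 5 left 0 members with overlapping peaks, 0 in replicate 1 and 3 in replicate 2 (Tti1, Mtor and Prkdc), and 9 of 48 partner genes with overlapping peaks; over all protein-coding genes the shares were then 8.56% with overlapping peaks, 10.5% in replicate 1 and 23.9% in replicate 2. With the top 1000 peaks of each list, these counts were 0, 0, 0 and 3, and the shares 3.11%, 6.23% and 5.78%. Leaving out 1 library gave 3 to 5 members and 27 to 36 partner genes, where 5 and 36 were those of replicate 2 alone. The shares of all protein-coding genes were then 21.0% for replicate 1 alone and 32.8% for replicate 2 alone. Windows of 1 kb and 10 kb left 3 members with overlapping peaks, against 16.3% and 20.5% of all protein-coding genes. The 10 kb window added Tti2 in replicate 2, which made 6 members, against 37.7%. Giving each region to its nearest gene end, chosen after seeing the data, left 3 members, Tti1 being tied with Rprd1b, and 20 partner genes. The share of all protein-coding genes was not computed for that rule. No paired analysis was possible because no values of the input libraries were used and the counts come from no test. Each member peak rests on 13 to 28 reads at its summit, which limits its fold.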
